A study of Caenorhabditis elegans with 8 samples.

Results

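The genes described here encode the enzymes that turn newly made collagen chains into the cross-linked cuticle of Caenorhabditis elegans. A further gene, bli-5, encodes a member of a class of serine protease inhibitors. The genes were taken by name from the platform annotation, from a list drawn up with earlier results of these data known. All 9 genes on that list (dpy-18, phy-2, phy-3, pdi-2, dpy-11, bli-4, bli-5, bli-3 and mlt-7) were present, out of 15078 named genes, and they carried 24 probes. The study hybridized RNA of 2 stages of the wild-type strain N2 Bristol to 2-colour oligonucleotide arrays. Dauer exit worms (n = 4) were purified dauers returned to plates with Escherichia coli OP50 for 12 h, and dauers (n = 4) were non-feeding, stress-resistant larvae selected with detergent from liquid culture and rested overnight in salt solution. Every array carried the same mix-stage RNA, pooled from plate cultures of mixed stage, in the other dye. The dyes were swapped, so that the stage RNA was red (Cy5) on 2 arrays of a stage and green (Cy3) on 2. All values are log2 ratios of the stage over the mix-stage pool, so that 0 is the level of the pool, 1 is 2-fold above it and -1 is 2-fold below it.

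The cuticle is secreted by the epidermis and rebuilt at every moult, mostly from collagens. In the endoplasmic reticulum, proline residues of the procollagen chains are hydroxylated by prolyl 4-hydroxylase, in which catalytic subunits such as DPY-18 and PHY-2 are joined to the disulfide isomerase PDI-2. A proprotein convertase trims the chains, and outside the cell an oxidase and a peroxidase link tyrosine residues of neighbouring chains. Loss of several of these enzymes gives short (dumpy, dpy) or blistered (bli) worms.

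Some facts of the whole set of arrays bear on all values below. Equal amounts of total RNA were labelled, so a ratio is not an amount per worm, and in whole worms fewer epidermal cells and less RNA per cell cannot be told apart. The paper reported less total RNA per worm in dauers than in mix-stage, and a smaller share of mRNA in it. It expected most genes to be lower in dauers than in mix-stage for that reason. Ratios correlated across genes at 0.46 to 0.75 among the dauer exit arrays and 0.47 to 0.79 among the dauer arrays. Of 10 genes listed as dauer markers, 2 were called lower in dauer exit than in dauers, hsp-12.6 (-5.30, SE 0.62) and mtl-1 (-4.64, SE 0.55), and the dauer-type cuticle genes col-2, col-40 and cut-1 differed by 0.30, -0.12 and -0.04 with no call. Against the pool, 3 of the 10 were called higher in dauers (hsp-12.6, mtl-1 and hil-1). Another 2 were called lower than the pool in dauers, lea-1 (-1.92, SE 0.36) and ctl-2 (-1.67, SE 0.32). All 6 yolk protein genes were called lower than the pool in both stages, with list medians of -6.13 to -1.31 over the dauer exit arrays and -5.69 to -1.96 over the dauer arrays. Among the exit arrays all 6 were highest on replicate 1, where vit-2 was at -0.52, against -6.81, -6.28 and -5.59 on the others. On dauer replicates 1 to 4 vit-2 was at -3.86, -1.97, -2.01 and -6.21. Of 10 germline genes 4 were called lower than the pool in dauer exit and 6 in dauers. The part of these differences in the comparisons with mix-stage was not tested. Signal intensities were not used here, so a ratio near 0 may belong to a dim probe.

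The first question is which of these genes change within 12 h of return to food. The genes dpy-18, phy-2, pdi-2 and dpy-11 were higher in dauer exit than in dauers, by about 4-fold to 10-fold. The genes for the later steps (bli-4, bli-5, bli-3 and mlt-7), and phy-3, did not pass the test. The genes called were 4 of the 9, where 1.88% of the 15078 genes were called higher in this comparison and 2.13% lower (4.01% in either direction). Calls were made in limma, with a threshold of 0.05 on the p adjusted over all genes, and errors of fold changes are its moderated standard errors (SE). None of the 9 was called lower by limma, and at an unadjusted p under 0.05 6 were higher and 0 lower. Those of the 6 that were not called, bli-5 and mlt-7, ranked only 1781 and 2273 by p among all genes. The share of all genes at this unadjusted p was not counted, here or for the lists below. The median log2 fold change of the 9 was 1.05, against -0.03 for all genes, and 9 of the 9 were above 0, against 45.9% of all genes.

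**Figure D1:**
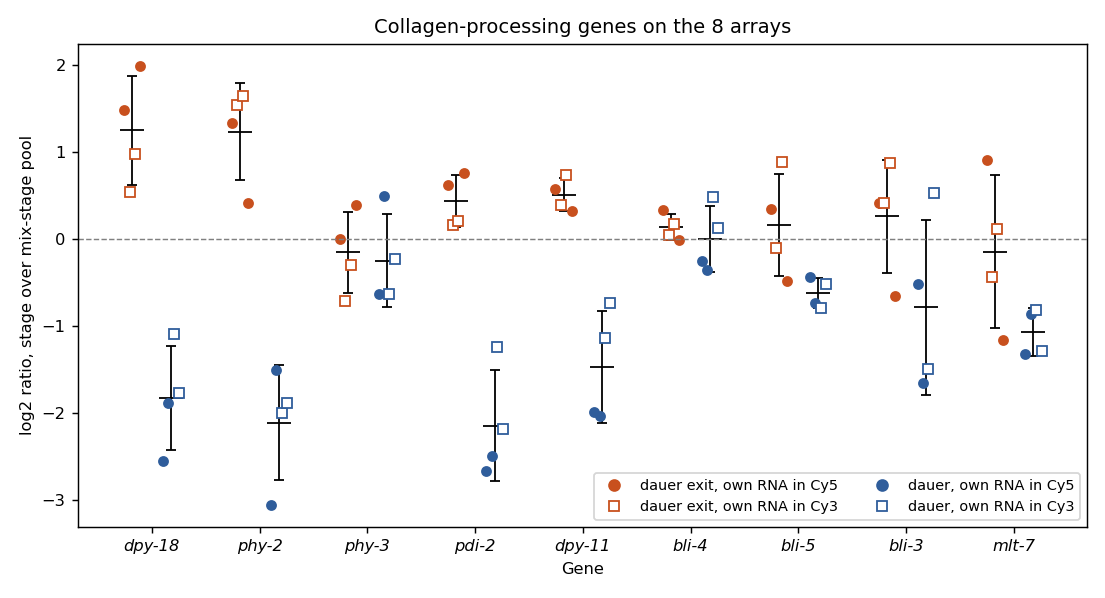
Log2 ratio over the mix-stage pool (vertical axis) for the 9 genes (horizontal axis) on each of 4 dauer exit arrays (orange, left of each pair) and 4 dauer arrays (blue). Filled circles have the stage RNA in Cy5, open squares in Cy3, and black bars give the mean ± SD. The stages are apart for dpy-18, phy-2, pdi-2 and dpy-11 and overlap for the other 5 genes.

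Of the prolyl hydroxylase genes, dpy-18 (also called phy-1) encodes a catalytic subunit whose loss gives dumpy worms. Its log2 ratios were 1.49, 0.54, 0.99 and 1.99 on dauer exit replicates 1 to 4, against -2.55, -1.88, -1.09 and -1.77 on dauer replicates 1 to 4. Every dauer exit array lay above the pool and every dauer array below it, with a gap of 1.64 between the lowest exit and the highest dauer value. The means were 1.25 ± 0.63 in dauer exit and -1.82 ± 0.60 in dauers (SD, n = 4 each). The log2 fold change of dauer exit over dauers was 3.08 (SE 0.39, limma adjusted p = 0.00399), or 8.44-fold.

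The gene phy-2 encodes the other catalytic subunit that acts on cuticle collagens in this worm. It was measured by 1 probe and had the highest fold change of the 9 genes. Its log2 ratios were 1.34, 1.55, 1.64 and 0.42 in dauer exit, against -3.05, -1.51, -1.997 and -1.89 in dauers. The values of the stages were again on opposite sides of the pool, 1.93 apart at the nearest. The log2 fold change was 3.35 (SE 0.39, limma adjusted p = 0.00317), which is 10.2-fold, and phy-2 ranked 45 by p among all genes.

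The remaining prolyl hydroxylase gene, phy-3, is known from the spermatheca. Its log2 ratios were 0.00444, -0.71, -0.29 and 0.39 in dauer exit, against -0.63, 0.50, -0.62 and -0.23 in dauers. The stages overlapped over nearly their whole range, and both lay around the pool. The log2 fold change was 0.09 (SE 0.33, limma adjusted p = 0.951), with a sign that turned without single arrays and within the Cy3 arrays. The stage effect of dpy-18 exceeded that of phy-3 by 2.98 (SE 0.42) on the log2 scale, and that of phy-2 exceeded it by 3.26 (SE 0.54), whereas dpy-18 and phy-2 differed by -0.27 (SE 0.63). In a two-sided exact permutation test over the arrays the first 2 differences reached p = 0.0286, the smallest that 4 against 4 arrays allow, and the last gave p = 0.714. Adjusted over the 6 pairs of genes compared in this way the values were 0.0857, 0.0857 and 0.771, and none passed the correction. A pair at the smallest p could pass only if most of the 6 pairs were also at it. The correction therefore cannot decide on the first 2 differences with so few arrays. The pairs were chosen with earlier results of these data known.

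The disulfide isomerase gene pdi-2 encodes the subunit that keeps the prolyl hydroxylase catalytic chains soluble and active. Its log2 ratios, each the mean of 8 probes, were 0.62, 0.17, 0.21 and 0.76 in dauer exit, against -2.66, -2.49, -1.24 and -2.18 in dauers. The exit values were all slightly above the pool and the dauer values all well below it. The fold change on the log2 scale was 2.59 (SE 0.33, limma adjusted p = 0.00418), or 6.004-fold. The means were 0.44 ± 0.30 in dauer exit and -2.14 ± 0.63 in dauers (SD, n = 4 each).

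A thioredoxin-like protein of the epidermal secretory pathway is the product of dpy-11, another gene whose loss gives dumpy worms. Its log2 ratios were 0.58, 0.40, 0.74 and 0.32 in dauer exit, against -1.99, -2.03, -1.14 and -0.73 in dauers. The exit arrays were close to each other, with an SD of 0.19, and the dauer arrays spread more widely, with an SD of 0.64. Here too the stages did not overlap. Dauer exit exceeded dauers by 1.98 on the log2 scale (SE 0.32, limma adjusted p = 0.0103), or 3.95-fold. The fold change of pdi-2 exceeded that of dpy-11 by 0.60 (SE 0.35, exact permutation p = 0.143, adjusted p = 0.214).

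For these 4 genes the stages were apart on every array, where the exit arrays lay wholly above the dauer arrays in 4.18% of all genes and wholly below them in 5.37%. The calls and the separation rest on the same ratios and are not independent of each other. With the stage RNA in Cy5 the stages differed by 3.96 for dpy-18, 3.16 for phy-2, 3.27 for pdi-2 and 2.46 for dpy-11, and with it in Cy3 by 2.20, 3.54, 1.90 and 1.51. The difference was thus larger in Cy5 arrays for dpy-18, pdi-2 and dpy-11 and slightly larger in Cy3 arrays for phy-2. With 2 arrays per stage limma called none of the 4 within Cy5, where it called 0 of all genes (1939 at an unadjusted p under 0.05, with 4 of the 9 genes among them), and phy-2 alone within Cy3.

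The convertase gene bli-4 encodes a subtilisin-like enzyme that cuts cuticle procollagens. Its log2 ratios, averaged over 6 probes, were 0.34, 0.05, 0.18 and -0.01 in dauer exit, against -0.25, -0.35, 0.48 and 0.13 in dauers. Both stages lay around the pool. Dauer exit exceeded dauers by 0.14 on the log2 scale (SE 0.24, limma adjusted p = 0.879), and the difference turned to -0.19 within the Cy3 arrays. The gene bli-5 encodes a Kunitz-type protein, a class of serine protease inhibitors, and is needed for an unblistered cuticle. It measured 0.35, -0.10, 0.89 and -0.48 in dauer exit, against -0.44, -0.73, -0.79 and -0.52 in dauers. All dauer values were below the pool and the exit values fell on both sides of it, with exit replicate 4 just below the highest dauer array. The log2 fold change of bli-5 was 0.78 (SE 0.30), and its adjusted p of 0.231 in limma did not pass. Its stage effect differed from that of bli-4 by 0.64 (SE 0.35, exact permutation p = 0.114, adjusted p = 0.214).

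Of the cross-linking genes, bli-3 encodes the dual oxidase that supplies hydrogen peroxide at the epidermal surface. It has a close paralog, duox-2, which was not analysed here, and whether the bli-3 probe also binds duox-2 RNA is not known. Its log2 ratios were 0.42, 0.42, 0.87 and -0.66 in dauer exit, against -0.51, -1.66, -1.49 and 0.53 in dauers. Exit replicate 4 was the lowest exit array and dauer replicate 4 the highest dauer array, and the SD of 1.01 in dauers was the largest of the 9 genes in that stage. Dauer exit exceeded dauers by 1.05 on the log2 scale (SE 0.51, limma adjusted p = 0.377). The peroxidase gene mlt-7, which acts with bli-3 in cross-linking and is needed for moulting, measured 0.91, -0.43, 0.12 and -1.16 in dauer exit, against -1.32, -0.85, -0.81 and -1.28 in dauers. The dauer values were tight, with an SD of 0.27, and the exit values spread more widely, with an SD of 0.88 and exit replicate 4 within the dauer range. The difference of the means was 0.93 (SE 0.41, limma adjusted p = 0.312). The stage effects of mlt-7 and bli-3 differed by -0.12 (SE 0.70, exact permutation p = 0.771, adjusted p = 0.771).

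The second question is how each stage stands against a growing population. In dauers 5 of the 9 genes were called lower than the mix-stage pool and 0 higher, where 13.6% of all genes were called lower and 4.92% higher (18.5% in either direction). The mean was above the pool for 1 of the 9 in dauers, against 43.7% of all genes. The mean log2 ratios in dauers were -2.14 for pdi-2 (SE 0.23, limma adjusted p = 0.000244), -2.11 for phy-2 (SE 0.27, adjusted p = 0.000643), -1.82 for dpy-18 (SE 0.27, adjusted p = 0.00142) and -1.47 for dpy-11 (SE 0.22, adjusted p = 0.00157). These are levels 4.42-fold, 4.32-fold, 3.54-fold and 2.77-fold below the pool. The first 3 means differed from each other by less than the SD between the dauer arrays. The call of dpy-11 was lost within Cy3 (-0.94, adjusted p = 0.0538) and when all 3 of its probes had to be called (highest adjusted p = 0.134). The fifth was mlt-7 (-1.07, SE 0.29, limma adjusted p = 0.0286), which lost its call without dauer replicate 1 (adjusted p = 0.111), 2 (0.0606) or 4 (0.109), after scaling the arrays alike (0.0660), and within either dye orientation. The mean ratios of bli-5 (-0.62, SE 0.21, adjusted p = 0.0763), bli-3 (-0.78, SE 0.36, adjusted p = 0.193) and phy-3 (-0.24, SE 0.23, adjusted p = 0.599) did not pass limma. Without dauer replicate 4 bli-3 passed at -1.22 (adjusted p = 0.0408), and without exit replicate 3, which enters only through the shared spread, the adjusted p of bli-5 was 0.0385. The mean of bli-4 in dauers was 0.00221 (SE 0.17).

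In dauer exit dpy-18 and phy-2 were called higher than the pool, where 0.458% of all genes were called higher and 9.07% lower (9.52% in either direction). The mean was above the pool for 7 of the 9 in dauer exit, against 38.3% of all genes. The mean log2 ratio was 1.25 for dpy-18 (SE 0.27, limma adjusted p = 0.0195) and 1.24 for phy-2 (SE 0.27, limma adjusted p = 0.0208), each about 2.4-fold above the pool. All 4 exit arrays were above the pool for both genes. Without exit replicates 1, 3 and 4 dpy-18 averaged 1.17, 1.34 and 1.01 and lost its call (adjusted p = 0.0824, 0.0501 and 0.0950). Without exit replicates 1, 2 and 3 phy-2 averaged 1.20, 1.13 and 1.10 and lost its call (0.0794, 0.112 and 0.0907). The call of dpy-18 was also lost within Cy3 (0.77, adjusted p = 0.18) and when both its probes had to be called (highest adjusted p = 0.0995), and that of phy-2 within Cy5 (0.88, adjusted p = 0.377). All 4 exit arrays were also above the pool for pdi-2 (mean 0.44, SE 0.23, adjusted p = 0.342) and dpy-11 (0.51, SE 0.22, adjusted p = 0.235), which did not pass limma. The means of phy-3 (-0.15), bli-4 (0.14), bli-5 (0.16), bli-3 (0.26) and mlt-7 (-0.14) were within 0.3 of the pool. None of the 9 genes was called lower than the pool by limma in dauer exit (0 at an unadjusted p under 0.05). The comparisons of the stages with mix-stage share 1 pool, whose own spread is not measured.

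**Figure D2:**
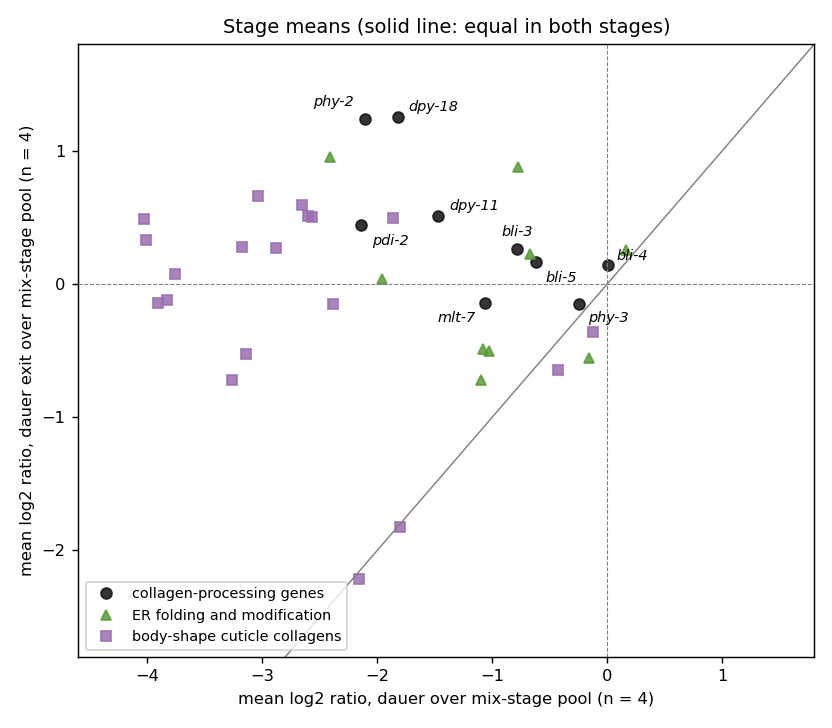
Mean log2 ratio over the mix-stage pool in dauer exit (vertical axis) and in dauers (horizontal axis), n = 4 arrays each, for the 9 collagen-processing genes (black circles, named), 9 genes of ER folding and modification (green triangles) and 19 body-shape cuticle collagens (purple squares). Points above the solid line are higher in dauer exit, and dpy-18 and phy-2 stand highest on the exit axis, at 1.25 and 1.24.

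Single probes add detail where a gene had more than 1, and phy-2, phy-3, bli-5, bli-3 and mlt-7 had only 1 each. Fitted one by one over all 44123 features with values, 8 of the 24 probes were called higher in dauer exit than in dauers and 0 lower, where 1.05% of all features were called higher. Both probes of dpy-18 were among them, with log2 fold changes of 2.88 and 3.27. For pdi-2 the 8 probes gave fold changes of 1.55 to 3.55, all positive, with 3 of them called, and in 7 of the 8 the exit arrays lay wholly above the dauer arrays. The share of all features with exit arrays wholly above was not counted, and among genes it was 4.18%. All 8 probes of pdi-2 were called lower than the pool in dauers, at -2.64 to -1.06. Of all 24 probes 2 were called higher than the pool in dauer exit, where 0.315% of all features were, and 14 lower than the pool in dauers, where 10.3% were. The 3 probes of dpy-11 gave 1.40 to 2.28, and the lowest was the one not called.

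The 6 probes of bli-4, a gene with several transcript forms, did not move together. Their log2 fold changes of dauer exit over dauers ran from -0.76 to 0.96, and none was called. A pair of probes assigned to the same transcript record of bli-4 pointed opposite ways. One measured 0.43, 0.05, 0.72 and 0.18 in dauer exit, against -0.55, -1.23, 0.48 and -0.51 in dauers (0.80, SE 0.36, limma adjusted p = 0.386). The other measured -0.34, 0.09, -0.33 and -0.31 in dauer exit, against 0.17, 0.46, 0.66 and 0.85 in dauers (-0.76, SE 0.23, limma adjusted p = 0.153). For this second probe every exit array lay below every dauer array. The share of all features with such a separation was not counted, and among genes it was 5.37%. The gene value of 0.14 for bli-4 thus averages probes of opposite sign, and probe sequences, which would place them on the transcript forms, were not used here.

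**Figure D3:**
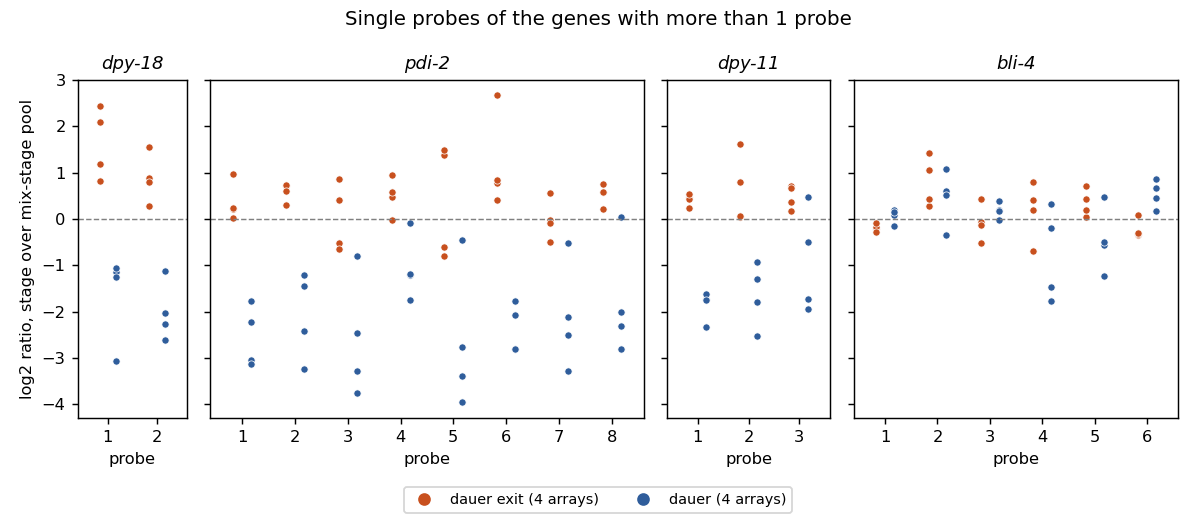
Log2 ratio over the mix-stage pool (vertical axis) for each probe (horizontal axis, numbered within a gene) of dpy-18, pdi-2, dpy-11 and bli-4 on 4 dauer exit arrays (orange, left) and 4 dauer arrays (blue, right). The probes of the first 3 genes are all higher in dauer exit on average, while those of bli-4 lie around 0 and differ in sign.

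Across the 8 arrays, with both stages together, dpy-18, phy-2, pdi-2 and dpy-11 followed one another. Pearson's r was 0.99 between dpy-18 and pdi-2, 0.90 between phy-2 and pdi-2, 0.89 between dpy-18 and phy-2, 0.92 between dpy-11 and dpy-18, 0.92 between dpy-11 and phy-2, and 0.93 between dpy-11 and pdi-2. The genes of the later steps were less alike, with r of 0.46 for bli-3 and mlt-7, 0.78 for bli-5 and bli-3, and 0.77 for bli-5 and mlt-7. The values of bli-4 correlated with those of bli-5, bli-3 and mlt-7 at 0.28, 0.28 and 0.48. Between dpy-18, phy-2, pdi-2 or dpy-11 and the genes of the later steps r ran from 0.32 (phy-2 and bli-4) to 0.76 (phy-2 and bli-5). The values of phy-3 correlated with those of the other 8 at -0.36 to 0.25. All arrays share the mix-stage pool and most of these correlations follow the difference between the stages, so they are descriptions over 8 arrays and carry no test.

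Among genes with a standard symbol and an SD of at least 0.5 over the arrays, the 3 most like dpy-18 were pdi-2 (r = 0.987), dct-16 (0.984) and the alpha tubulin gene tba-2 (0.984). Those most like phy-2 were lips-9, a lipase-type gene (0.975), qua-1, a hedgehog-related gene (0.972), and grl-5, also hedgehog-related (0.971). For pdi-2 they were clec-48, a C-type lectin gene (0.991), dct-16 (0.989) and the cuticle collagen gene rol-6 (0.988), and for dpy-11 fkb-3, an FK506-binding isomerase gene (0.987), aco-1 (0.984) and kat-1 (0.981). The gene bli-5 was most like pgp-3 (0.983), lgc-21 (0.959) and the collagen gene col-156 (0.958), and mlt-7 most like plk-1 (0.969) and the collagen genes col-166 (0.964) and col-12 (0.955). For bli-4 the 3 were bcc-1 (0.975), glrx-5 (0.968) and sbp-1 (0.966), for bli-3 coh-3 (0.952), lst-1 (0.930) and cra-1 (0.919), and for phy-3 hsd-3 (0.878), skr-3 (0.844) and cul-3 (0.842). These are the highest values among 3501 genes (3502 for phy-3 and bli-4) over only 8 arrays.

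Further genes of the same steps were taken from lists. Of 9 measured genes of ER folding and modification (12 listed), 2 were called higher in dauer exit than in dauers and 0 lower (4 and 0 at an unadjusted p under 0.05), with a list median of 0.59 against -0.03 for all genes. The disulfide isomerase gene pdi-1 measured 2.73, -0.21, -0.32 and 1.60 in dauer exit, against -2.23, -2.37, -3.04 and -2.01 in dauers. The 2 high exit values were those with the stage RNA in Cy5, and the log2 fold change was 3.36 (SE 0.64, limma adjusted p = 0.0221). The ER chaperone gene hsp-3 measured 0.99, -0.67, -0.23 and 0.06 in dauer exit, against -2.51, -2.17, -1.05 and -2.10 in dauers (2.00, SE 0.42, limma adjusted p = 0.0305). The lysyl hydroxylase gene let-268, which acts on basement membrane collagen, did not pass (1.66, SE 0.43, limma adjusted p = 0.0732), nor did pdi-3 (0.52, SE 0.41) or the calnexin gene cnx-1 (0.09, SE 0.68). Against the pool, 5 of the 9 were called lower in dauers and 0 in dauer exit.

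**Figure D4:**
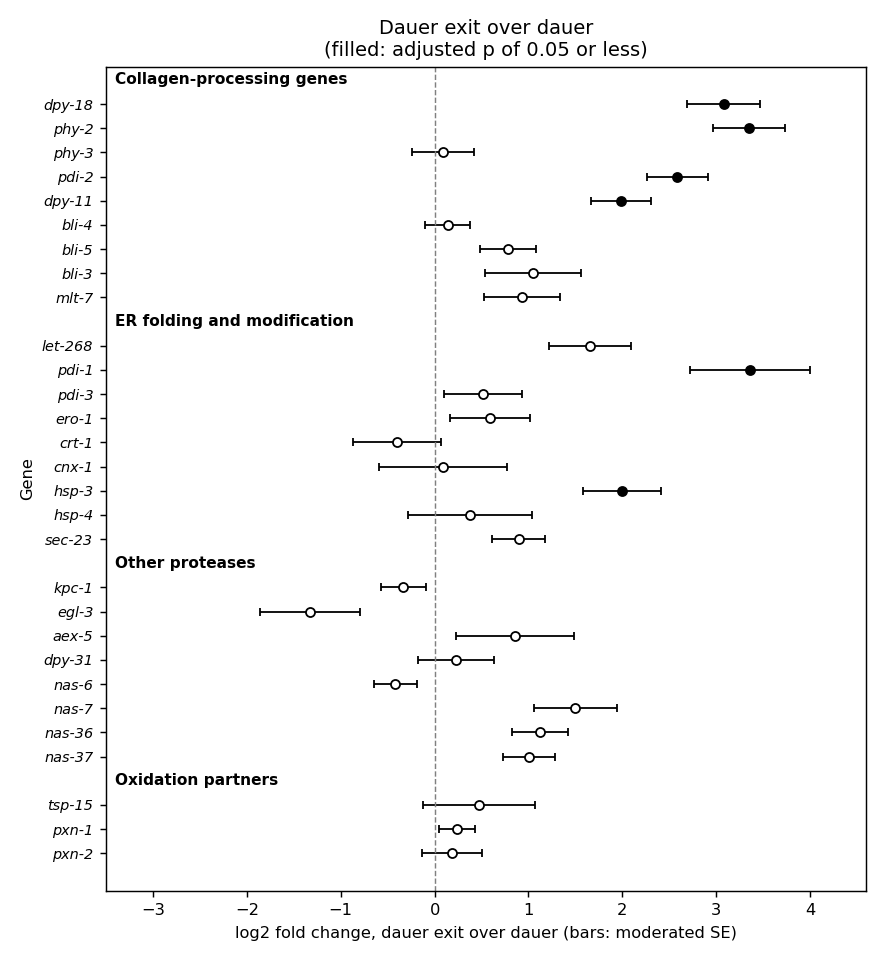
Log2 fold change of dauer exit over dauers (horizontal axis, bars for the moderated SE) for the 9 collagen-processing genes and for measured genes of ER folding and modification, other proteases and oxidation partners (vertical axis), filled where the adjusted p was 0.05 or less. The 6 filled points are dpy-18, phy-2, pdi-2, dpy-11, pdi-1 and hsp-3, between 1.98 and 3.36.

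Of 8 other convertases and astacin-type proteases none was called by limma between the stages (3 higher and 1 lower in dauer exit at an unadjusted p under 0.05, list median 0.54). The smallest p belonged to nas-36, a moulting protease gene, which measured 0.97, 0.51, 0.16 and 0.55 in dauer exit, against -1.28, -0.57, -0.32 and -0.12 in dauers (1.12, SE 0.30, limma adjusted p = 0.0750). The convertase gene egl-3 of neuropeptide maturation was the one on the other side (-1.33, SE 0.53, limma adjusted p = 0.254). Of the oxidation and peroxidase list 3 of 8 genes were measured, tsp-15, a tetraspanin gene that works with bli-3 (0.47, SE 0.60), pxn-1 (0.23, SE 0.19) and pxn-2 (0.19, SE 0.32), and none was called by limma (0 at an unadjusted p under 0.05). The Kunitz-type gene mlt-11, which was listed beside bli-5, was not analysed here.

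Collagen genes, whose products these enzymes process, were counted in the same comparison. Of 19 body-shape cuticle collagen genes 15 were called higher in dauer exit than in dauers and 0 lower, with a list median of 3.12, led by rol-6 (4.52, SE 0.42), dpy-2 (4.34, SE 0.34) and sqt-1 (3.83, SE 0.41). The 4 not called were bli-1 (-0.02, SE 0.36), bli-2 (-0.06, SE 0.25), dpy-14 (-0.23, SE 0.39) and dpy-17 (-0.22, SE 0.22). The collagens bli-1 and bli-2, known from the adult cuticle, were called lower than the pool in both stages, at -1.82 and -2.21 in dauer exit and -1.80 and -2.16 in dauers. Of 152 numbered col genes 22 were called higher in dauer exit and 2 lower, with a list median of 0.84. The type IV collagen genes of basement membranes, which also carry hydroxyproline, were higher in dauer exit as well, with emb-9 at 2.67 (SE 0.41, limma adjusted p = 0.00803) and let-2 at 2.34 (SE 0.32, limma adjusted p = 0.00505), whereas cle-1, a type XVIII collagen gene, was at 0.10 (SE 0.26). The study described cuticle and collagen themes on these samples, so these counts are not independent evidence.

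The same collagen lists were set against the pool. In dauer exit 0 of the 19 body-shape collagens and 0 of the 152 numbered col genes were called higher than the pool by limma (4 and 3 at an unadjusted p under 0.05), while 3 and 50 were called lower, and the list medians were 0.07 and -0.67. The median of the 9 collagen-processing genes was 0.26. In dauers 17 of the 19 and 105 of the 152 were called lower, with medians of -2.88 and -2.36, and the median of the 9 was -1.07. The lists were not tested against each other.

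Markers of the epidermis, where the cuticle is made, did not pass the test between the stages. Of 8 measured epidermal genes (10 listed) 0 were called by limma (1 higher and 0 lower in dauer exit at an unadjusted p under 0.05), with a list median of 0.14, and the median of the list on each array was -0.28 to 0.02 in dauer exit and -0.44 to -0.10 in dauers. The moulting regulator genes nhr-23 and nhr-25 differed by 0.23 (SE 0.21) and 0.31 (SE 0.22). On the other side were elt-1 (-0.54, SE 0.29) and let-413 (-0.35, SE 0.27), and ajm-1, vab-10 and eff-1 were at 0.03, 0.15 and 0.13. The largest difference was that of che-14, a gene of apical secretion in epithelia (1.87, SE 0.46, limma adjusted p = 0.0597).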

How the data were processed

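The members and gene lists were chosen with earlier results of these data known. The deposited log2 ratios (Cy5 over Cy3) were made by the authors in limma (version not given in the sources used here). Background was removed by the normexp method, and each array was normalized by loess with spike-ins and probes weighted differently. Deposited column medians lay between -0.09 and 0.14. Ratios were turned by the dyes in the labels to own over mix-stage RNA. Before turning, arrays of one orientation correlated at 0.22 to 0.74 and of opposite orientation at -0.70 to -0.05.

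Of 45220 features 44123 had values, and 27263 probes carried 1 symbol and 0 several. Of these 19293 were matched by accession to the WBcel235 gene table, which renamed 98. Probes were averaged per gene, which gave 15078 genes. A single fit with 1 coefficient for each stage used all 8 arrays, lmFit and eBayes (limma 3.58.1, R 4.3.3), Benjamini-Hochberg adjusted over all genes. The mix-stage pool is 1 control sample. Replicates were parallel cultures, and p-values reflect the spread among them. The number of arrays limits the precision, and the median SE was 0.31 between stages and 0.22 against mix-stage. On simulated data for dauer exit versus dauer (15078 genes, 200 changed) the fit recovered 11.9%, 61.2% and 81.8% of genes changed by 1, 2 and 3 on the log2 scale and called 4 unchanged genes. The simulated noise was normal and independent between genes and arrays, with no dye effect, so these rates need not hold for the real arrays. Exact permutation tests over arrays used scipy 1.17.1. Named genes were all 9 members, up to 3 called genes of largest fold change per list (or the 1 of smallest p), and the 3 genes most correlated with each member. Others were named after their values were seen. Alternatives were other array scalings, a dye term, 1 dye orientation, medians of probes, single probes, platform symbols, robust eBayes, a replicate block and leaving out each array. Scanner intensities, slides and dates were not used here.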

Additional observations from a re-analysis of the deposited data

Results flagged for a closer look

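For 4 genes all dauer exit arrays lay above the mix-stage pool and all dauer arrays below it. The share of all genes on opposite sides of the pool in this way was not counted. On whichever side of the pool, the exit arrays lay wholly above the dauer arrays in 4.18% of all genes. The pattern rests on the same ratios as the limma calls. The difference between the stages was tested in limma and was 3.08 for dpy-18, 3.35 for phy-2, 2.59 for pdi-2 and 1.98 for dpy-11 on the log2 scale. Among the 18 groups of 4 arrays formed by the 9 genes and 2 stages, 0 held a single array that stood apart from the other 3 by Dixon's criterion.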

How the results depend on the processing

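The count of 4 genes higher in dauer exit than in dauers stayed at 4 without each single array and with median-centred arrays, a common scale, a dye term, probe medians, platform symbols and robust eBayes. It was 2 when every probe of a gene had to be called, 1 within Cy3 arrays and 0 within Cy5 arrays. The all-gene count of 604 was 291 and 0 within Cy3 and Cy5, and 287 to 742 without single arrays, at 287, 337 and 291 for exit replicates 1, 2 and 3 left out and 301 for dauer replicate 4. Against mix-stage, the 2 genes higher in dauer exit became 1 with single probes, 1 within Cy3, 1 within Cy5 and 0 to 2 without single arrays, and all genes called became 674, 621 and 695 to 1861 (1436 with all arrays, 695 and 853 without exit replicates 2 and 4). In dauers the 5 lower genes became 3 within Cy3, 4 within Cy5, 4 on a common scale, 4 with single probes and 4 to 6 without single arrays, and all genes 1796 within Cy3 and 2052 to 3011 without single arrays (2796 with all). Using fewer arrays and adjusting over more features are part of these settings, and other causes were not tested.

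Signs turned only for uncalled values. Between the stages phy-3 was -0.076 and bli-4 -0.19 within Cy3. Within Cy5, against the pool, phy-3 was 0.20, bli-5 -0.0683 and bli-3 -0.12 in dauer exit and bli-4 -0.30 in dauers. Without single arrays the stage difference of phy-3 ran from -0.0882 to 0.34 (-0.0353, -0.0331 and -0.0882 without dauer replicates 1 and 3 and exit replicate 4). Its exit level ran from -0.33 to 0.0348, that of bli-5 from -0.0799 to 0.38 and that of mlt-7 from -0.49 to 0.20, and the dauer level of bli-4 from -0.16 to 0.12, with -0.16 and -0.0406 without dauer replicates 3 and 4.

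Whether the replicate numbers pair the samples is not known. The paper used purified dauers both for RNA and to start the exit cultures. Deviations of same-numbered arrays correlated at 0.07, -0.05, 0.23 and -0.15, and 2 of 8 arrays correlated best with their own number. Same-numbered arrays shared a dye orientation for replicates 1 and 3 but not for 2 and 4. Pairing and dye therefore cannot be told apart by these values. With the replicate block 4 genes were higher and 0 lower, and 489 of all genes were called. Filters on dim probes, other background corrections and slide blocks were not run, since intensities were not used here.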
